A study of Mus musculus with 12 samples.

Results

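The genes described here encode 8 very large ubiquitin ligases, Ubr1, Ubr2, Ubr4, Herc1, Herc2, Huwe1, Trip12 and Mycbp2, measured in monocytic myeloid-derived suppressor cells (M-MDSCs) of young and aged mice. They were chosen by name from the 23420 genes counted, and Ubr4 was singled out because it was lower in aged mice. All 8 had enough counts to be tested, among 9742 tested genes. Because the values that drew attention to these genes are the differences between the ages, those differences are given as a description with no test of their own.

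Ubiquitin ligases (E3 enzymes) hand the small protein ubiquitin from an activating enzyme (E1) and a conjugating enzyme (E2) to a chosen substrate, which often sends the substrate to the proteasome. Ubr1, Ubr2 and Ubr4 carry a UBR box and are N-recognins, which bind proteins through their first amino acid, the N-degron pathway. Herc1, Herc2, Huwe1 and Trip12 end in a HECT domain, which takes the ubiquitin onto itself before it passes it on. Mycbp2 is counted with these ligases for its size, but it has neither domain in that role. It is a RING-type ligase that relays ubiquitin through cysteines of its own.

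The M-MDSCs came from the bone marrow of male C57BL/6JNIA mice. The young group was 6 mice aged 6 months and the aged group 6 mice aged 24 months, and each mouse gave 1 RNA library. The cells were sorted as CD11b+Ly6G-Ly6Chi, and the labels name no transgene and no treatment. The study asked how age changes these osteoclast precursors. Each library is a bulk pool of the cells of 1 mouse, and only males were sampled. In the file headers every young library has a lower number after the letter S than any aged library. The headers do not say what this number stands for, and whatever goes with it cannot be told apart from age.

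The libraries of young mice held between 4613239 and 9079237 counted fragments, and those of aged mice between 8737941 and 16300374. The labelled cell type was checked against marker genes. The 8 classical monocyte genes, among them Ly6c2, Csf1r and Itgam, summed to 3427 to 4592 CPM (counts scaled to the size of the library) in aged mice and 4065 to 4290 CPM in young mice. Most of this sum was Itgam, which neutrophils also express, at a mean of 2891 CPM in aged and 3371 CPM in young mice, and Ccr2 had means of 31.2 and 37.1 CPM. The 8 neutrophil genes summed to 119735 to 142598 CPM in aged mice and 76370 to 119924 CPM in young mice. Their transcripts far outnumbered those of the monocyte genes, in a sort that was meant to leave Ly6G+ cells out. The list holds S100a8, S100a9, Cxcr2 and Retnlg, which the paper also used to score M-MDSCs, so its sum need not come from neutrophils alone. The granule genes Ngp and Ltf had means of 39574 and 20873 CPM in aged mice and 30900 and 21692 CPM in young mice. Of these neutrophil genes, 5 rose with age, where 22.4% of all tested genes did, and none of the 8 passed with a correction for gene length. All 8 resident macrophage genes rose, against the same 22.4%, from 70.8 to 88.1 CPM in sum in young mice to 83.1 to 999 CPM in aged mice, and all 8 were also higher with the length correction. Of 10 proliferation genes 3 fell, where 23.0% of all tested genes did, with Mki67 at a log2 fold change of −2.01. With the length correction 1 of the 10 was lower. Over all tested genes, 16.4% were lower and 18.4% higher with that correction. Only 2 of 8 B and plasma cell genes and none of the erythroid genes were abundant enough to be tested. Hba-a1 had no counts, but it has a near-identical copy, and fragments that fit several places were not counted. The part of these other cells in the values of the ligases was not tested.

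The genes lie on 8 chromosomes of mm10, and 5 of them have over 14000 bases of exon. The exons of Ubr4 (chr4:139380659-139489532, plus strand), Herc1 (chr9:66350450-66508775, plus strand), Herc2 (chr7:56050155-56231798, plus strand), Huwe1 (chrX:151803282-151935417, plus strand) and Mycbp2 (chr14:103113411-103346800, minus strand) add up to 14624 to 15872 bases. Those of Trip12 (chr1:84721189-84839304, minus strand), Ubr1 (chr2:120860276-120970715, minus strand) and Ubr2 (chr17:46928291-47010532, minus strand) add up to 9632, 7761 and 7748 bases. The median is 14926.5 bases, against 2890 bases over all genes tested. Ubr4 is the longest, with 106 separate exon stretches, and 20 tested genes are longer. Fragments were counted over all exons of a gene, so untranslated ends are included and isoforms are not told apart.

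The promoters of 7 of the 8 genes were found in a RefSeq table of GRCm38.p6, the build called mm10 elsewhere, and the entry for Mycbp2 was not found. Of these, 3 are shown because they stand for the range of the differences with age: Ubr4, for which these genes were singled out, Herc1, whose difference is like it, and Ubr1, whose difference is the smallest. Each is the 250 bases before the start of the gene, read 5′ to 3′ on the strand of the gene, at chr4:139380409-139380658 for Ubr4, chr9:66350200-66350449 for Herc1 and chr2:120970716-120970965 for Ubr1. Capitals mark matches, on either strand, to any of 5 short motifs, which are spelled out after the sequences.
Ubr4: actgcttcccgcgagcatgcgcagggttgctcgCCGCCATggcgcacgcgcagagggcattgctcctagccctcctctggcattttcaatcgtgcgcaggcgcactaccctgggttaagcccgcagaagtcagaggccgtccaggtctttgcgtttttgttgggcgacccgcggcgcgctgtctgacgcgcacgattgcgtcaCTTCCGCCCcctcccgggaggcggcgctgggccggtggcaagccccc
Herc1: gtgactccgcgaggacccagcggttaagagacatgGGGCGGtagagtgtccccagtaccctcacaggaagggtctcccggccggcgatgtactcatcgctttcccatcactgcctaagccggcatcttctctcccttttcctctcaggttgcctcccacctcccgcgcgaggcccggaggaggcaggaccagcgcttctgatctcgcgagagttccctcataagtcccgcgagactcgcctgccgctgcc
Ubr1: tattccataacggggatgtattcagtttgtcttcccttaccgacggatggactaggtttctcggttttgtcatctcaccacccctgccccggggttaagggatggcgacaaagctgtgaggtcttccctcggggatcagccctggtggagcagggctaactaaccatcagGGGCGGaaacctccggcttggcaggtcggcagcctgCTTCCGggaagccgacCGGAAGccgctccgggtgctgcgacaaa

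The promoters found all hold at least 10 CpG, as do 37.8% of all promoters. The 8 promoter entries of the 7 genes, 2 of them of Herc2, hold 11 to 35 CpG and 51.2% to 78.0% GC, where the median of 32851 promoters of the same length is 6 CpG and 52.4% GC. GGGCGG, the letters of a GC box, was found in Ubr1, Ubr4, Herc1, Herc2 and Huwe1 and in 32.7% of all promoters. CGGAAG, the core that ETS factors bind, was found in Ubr1, Ubr2, Ubr4 and Herc2 and in 13.6% of all promoters. In Ubr4 the letters of these 2 motifs overlap. ATGGCGG, a part of the YY1 motif, was found in Ubr4 alone and in 2.21% of all promoters, and CCAAT in Herc2 alone and in 33.8%. The E-box CACGTG was found in none of the 7 genes and in 6.02% of all promoters. The promoter of Ubr1, the gene that differed least with age, holds both GGGCGG and CGGAAG, as does that of Ubr4.

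All 8 genes were lower in aged than in young mice by mean CPM, with log2 fold changes from −1.25 to −0.18 and a median of −0.88, where the median over all genes tested was 0.01. In the fit over all genes, each of the 8 had an adjusted p under 0.05 and a lower value in aged mice. That call was made for 23.0% of all tested genes, and 45.4% were called in either direction. The CPM of aged and young mice did not overlap for 7 of the 8, which held, in the same direction, for 12.1% of tested genes. Since the genes were chosen with these differences known, nothing is read from either count. In sum the 8 genes took 1220 to 1585 CPM in aged mice, with a median of 1370 CPM, and 2116 to 2653 CPM in young mice, with a median of 2271 CPM. Since RNA was taken from pools of sorted cells, fewer cells of a type and less RNA per cell cannot be told apart. The call of Ubr1 was fragile: it was lost when any of 8 of the 12 mice was left out, in turn aged mouse 1, 2, 5 or 6 or young mouse 1, 2, 5 or 9, with log2 fold changes between −0.19 and −0.15, and the other 7 genes kept theirs in each of these 12 fits.

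**Figure D1:**
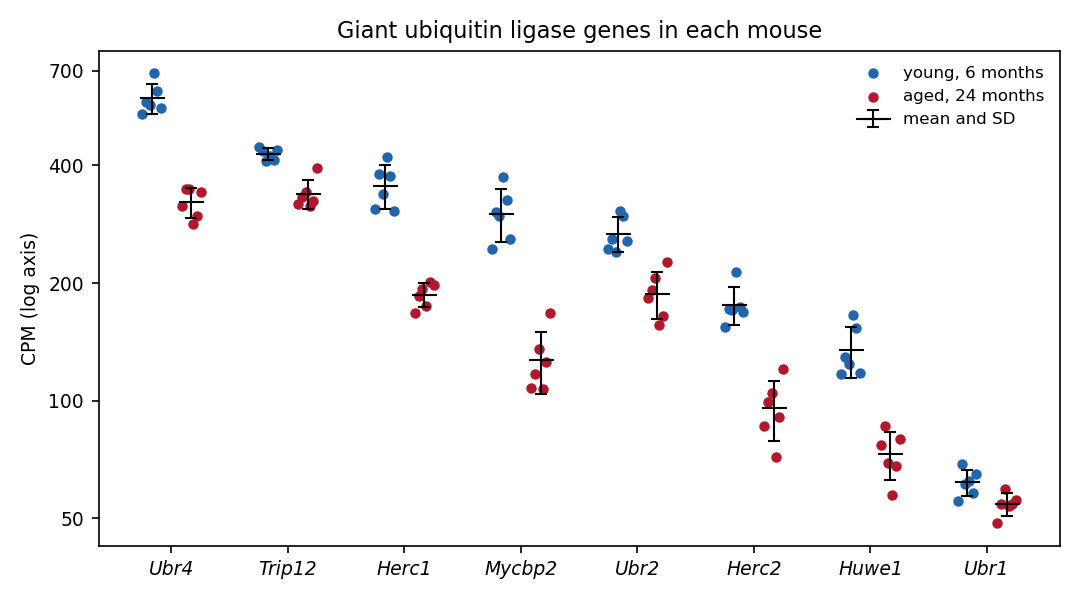
CPM (log axis) of the 8 giant ubiquitin ligase genes, with 1 point per mouse, blue for 6 young mice and red for 6 aged mice; black bars are the mean and SD of each age. The points of the ages are apart for every gene but Ubr1, and Ubr4 lies between 543 and 689 CPM in young mice and between 283 and 348 CPM in aged mice.

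Ubr4, the N-recognin for which these genes were singled out, works with the ligase Kcmf1. Its lowest, median and highest values were 543, 576 and 689 CPM in young mice and 283, 328 and 348 CPM in aged mice. Every aged mouse was below every young mouse, and the gap between the groups was wider than the range within the aged mice. The mean was 594 ± 52.8 CPM (SD, n = 6) in young and 322 ± 28.1 CPM (SD, n = 6) in aged mice, or 54.2% of the young mean, and the log2 fold change was −0.88 with a standard error (SE) of 0.077. Young mouse 5 had the highest and young mouse 10 the lowest young value, and aged mouse 5 had the lowest aged value.

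Ubr2, an N-recognin known for its part in male meiosis, had a lowest, median and highest value of 240, 258 and 306 CPM in young mice and 157, 188 and 226 CPM in aged mice. The groups did not overlap, although aged mouse 7, the highest of its age, came close to the lowest young mouse. The log2 fold change was −0.51 (SE 0.094). Ubr1, the N-recognin first described in this pathway, had 55.4, 61.7 and 68.7 CPM in young mice and 48.5, 54.2 and 59.5 CPM in aged mice. Here the groups overlapped, with 4 of 6 aged mice below the lowest young mouse and 4 of 6 young mice above the highest aged mouse. The log2 fold change was −0.18 (SE 0.070), the smallest of the 8 genes.

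Of the 4 HECT ligases 3 had log2 fold changes close to that of Ubr4. Herc1, a HECT ligase with RCC1-like repeats, had a lowest, median and highest value of 306, 357 and 420 CPM in young mice and 168, 189 and 201 CPM in aged mice. Herc2, which acts in the response to DNA damage, had 155, 171 and 213 CPM in young mice and 71.6, 95.0 and 120 CPM in aged mice. Huwe1, whose substrates include Mcl1 and p53, had 117, 127 and 165 CPM in young mice and 57.3, 73.0 and 86.2 CPM in aged mice. In none of the 3 did an aged mouse reach a young one, and young mouse 5 was the highest of all mice in each of them. Their log2 fold changes were −0.93 (SE 0.084) for Herc1, −0.88 (SE 0.110) for Herc2 and −0.88 (SE 0.109) for Huwe1, against −0.88 for Ubr4.

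Trip12, a HECT ligase that acts on the tumour suppressor ARF, stood apart from them. Its lowest, median and highest values were 412, 429 and 447 CPM in young mice and 316, 328 and 395 CPM in aged mice, without overlap. The young mice were close together, with a coefficient of variation of 3.40%, and aged mouse 7 was well above the other aged mice. The log2 fold change was −0.34 (SE 0.065). Young mouse 10, which was the lowest young mouse for 5 of the 8 genes, was the highest for Trip12.

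Mycbp2, which limits axon growth and ends the signal of the kinase Map3k12 in neurons, differed most. It had a lowest, median and highest value of 245, 301 and 373 CPM in young mice and 107, 121 and 168 CPM in aged mice. Aged mice had 42.1% of the young mean, and the log2 fold change was −1.25 (SE 0.122). Aged mouse 7 was again the highest aged mouse and young mouse 10 the lowest young mouse, and they were still apart.

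The genes with the longest exons were those with the largest differences, so the values were set beside genes of like length. Across all 9742 tested genes, Spearman's correlation of the log2 fold change with exon length was −0.48, a value across genes that share the same 12 libraries. Ordered by length and split into 10 groups of like size, the genes had medians that went down step by step from 0.46 in the shortest group to −0.41 in the longest, which holds all 8 ligases. Between 7748 and 15872 bases, the range of the 8 genes, there were 450 other tested genes with a median log2 fold change of −0.50, and 322 of them (71.6%) were called lower in aged mice.

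**Figure D2:**
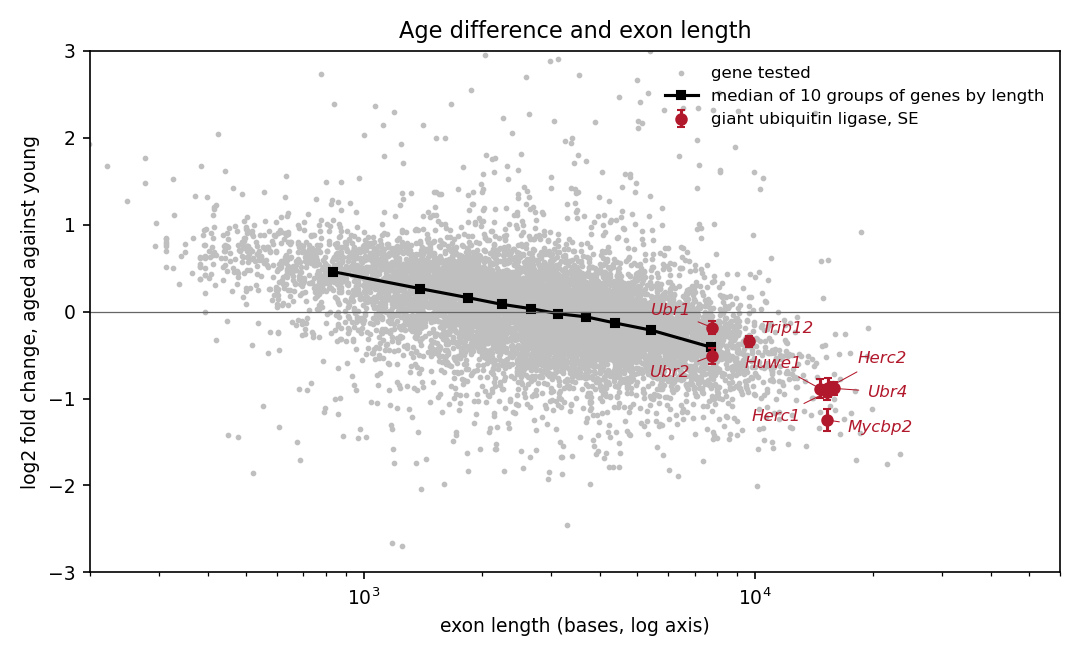
Log2 fold change of aged against young mice against exon length (bases, log axis). Grey points are tested genes (a few beyond the axes are not drawn), black squares are the medians of 10 groups of genes by length, drawn at their median length, and red points are the 8 ligases with SE; the medians go down from 0.46 to −0.41, and the 5 ligases over 14000 bases lie below the last of them.

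For each ligase, the tested genes whose exon length was within a ratio of 0.8 of its own, shorter or longer, were then taken, leaving out the 8 ligases. Around Ubr4 these were 49 genes with a median log2 fold change of −0.73, of which 41 (83.7%) were called lower and 36.7% were more negative than Ubr4. Herc1, Herc2 and Huwe1 had much the same place, with window medians of −0.75, −0.75 and −0.71 and with 30.1% to 36.2% of genes more negative. Ubr2 was also below its window median of −0.35, and 33.3% of 826 genes were more negative.

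Ubr1 and Trip12 were above their windows. The median around Ubr1 was −0.35 over 822 genes, 68.5% of which were more negative than Ubr1, and that around Trip12 was −0.47 over 410 genes, 63.2% of which were more negative. Mycbp2 was the farthest below, with 7 of 60 genes (11.7%) more negative and a difference of −0.49 from the window median of −0.75. Over the 8 genes the difference from the window median went from −0.49 to 0.17, was negative for 6 of them, and had a median of −0.16. These positions are a description, because the ligases were chosen with their differences known.

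With a correction for gene length, in which a smooth curve of log2 CPM over exon length was taken out of each library, the median log2 fold change of the 8 genes went from −0.88 to −0.12. Mycbp2 (−0.49) and Herc1 (−0.16) were then called lower, a call that 16.4% of tested genes had, and Ubr1 (0.22) was called higher, as were 18.4%. Ubr4 (−0.10, SE 0.057), Ubr2 (−0.11), Herc2 (−0.12), Huwe1 (−0.15) and Trip12 (0.17) were not called. Ubr1 and Trip12 turned their direction. Since the ligases were chosen with their differences known, nothing is read from their calls with the correction. The correction takes out whatever genes of 1 length share, whatever its source, so it does not say which part of a difference belongs to age.

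**Figure D3:**
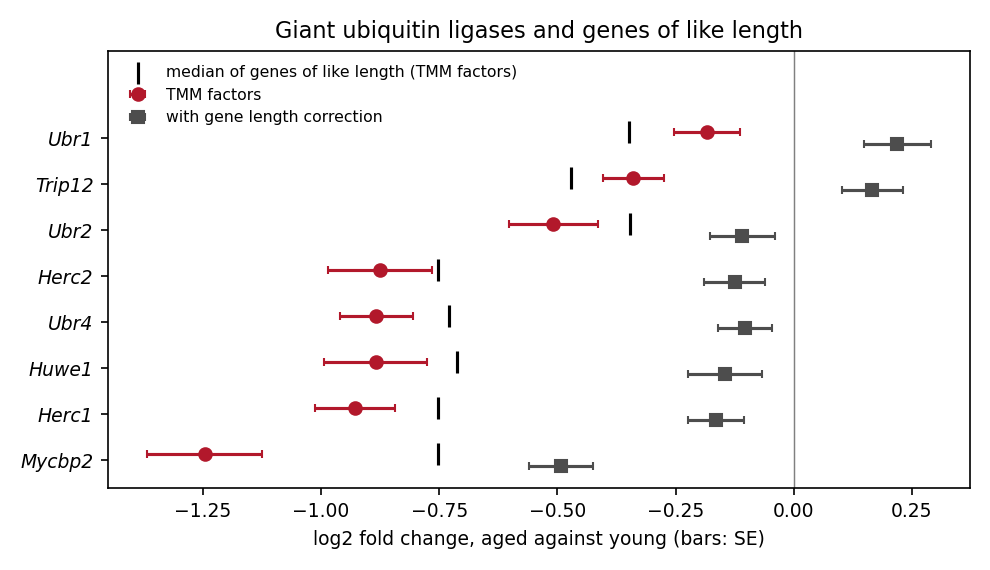
Log2 fold change of aged against young mice for the 8 ligases with TMM scaling (red circles), the median of other genes of like length on the same scale (black ticks) and the value with gene length correction (grey squares); bars are SE. With the correction Ubr1 and Trip12 lie above 0, Mycbp2 stays at −0.49 and the other 5 lie between −0.16 and −0.10.

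The share of long transcripts also differed from mouse to mouse. The length slope of a library, the change of log2 CPM relative to the mean of all libraries for each doubling of exon length, lay between 0.0287 and 0.210 in the young mice and between −0.151 and −0.0243 in the aged mice, without overlap. Aged mouse 7 was the aged mouse nearest to the young mice and young mouse 10 the young mouse nearest to the aged mice, and the slope was highest in young mouse 5. It was lowest in aged mouse 5. Of these mice, young mouse 5 was the highest young mouse for 6 of the 8 ligases and young mouse 10 the lowest for 5, and aged mouse 5 was the lowest aged mouse for 6 and aged mouse 7 the highest for 4.

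Within an age, the ligases followed the slope to different degrees. After the mean of each age was removed, Pearson's r of log2 CPM with the slope over 12 mice was 0.71 to 0.90 for Ubr2, Ubr4, Herc1, Herc2, Huwe1 and Mycbp2. It was 0.22 for Trip12 and 0.09 for Ubr1. Level and slope come from the same libraries, so these values are descriptive. Whether the slope comes from the cells, from the RNA or from the preparation of the libraries was not tested.

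**Figure D4:**
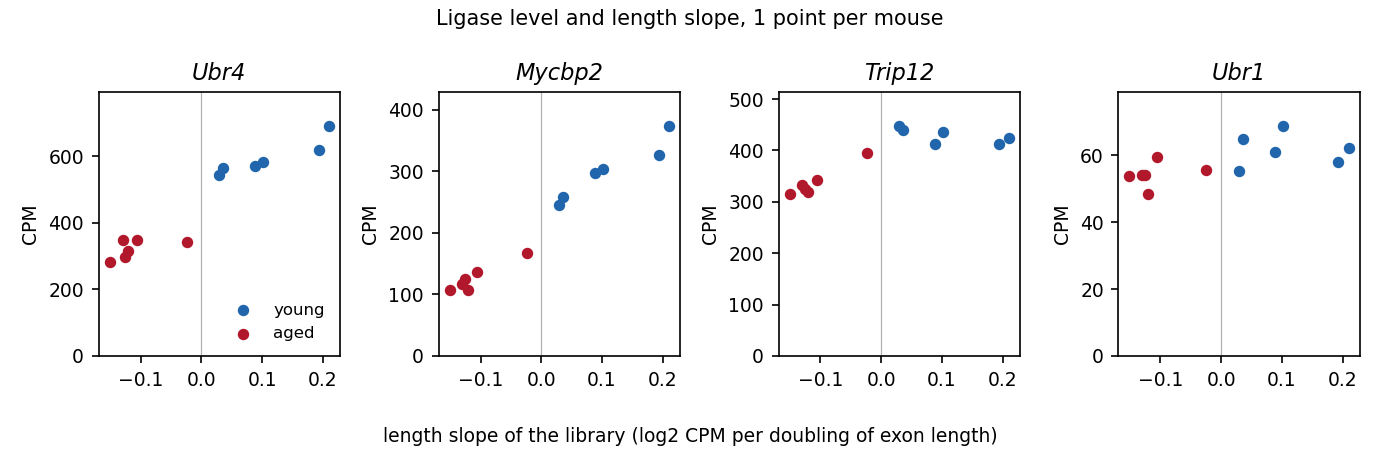
CPM of Ubr4, Mycbp2, Trip12 and Ubr1 against the length slope of the library (change of log2 CPM per doubling of exon length), with 1 point per mouse, blue for young and red for aged. Aged libraries lie at −0.151 to −0.0243 and young ones at 0.0287 to 0.210; Ubr4 and Mycbp2 go up with the slope within the young mice, and Ubr1 stays between 48.5 and 68.7 CPM across all of them.

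The levels of the 8 genes within an age were not used to choose them, and they were compared per kilobase of exon. In young mice the order by mean CPM per kilobase was Trip12 (44.4), Ubr4 (37.4), Ubr2 (34.5), Herc1 (23.3), Mycbp2 (19.8), Herc2 (11.4), Huwe1 (9.198) and Ubr1 (7.96). In aged mice it was Trip12 (35.1), Ubr2 (24.3), Ubr4 (20.3), Herc1 (12.2), Mycbp2 (8.32), Ubr1 (6.997), Herc2 (6.22) and Huwe1 (4.99). Neighbours in the order were compared within each mouse by an exact two-sided sign-flip permutation test of their log2 ratio, over 14 pairs of neighbours in the 2 ages. In 12 of the 14 all 6 mice went the same way, with p = 0.0312, the smallest value that 6 mice allow in this exact test, and 0.0365 after Benjamini-Hochberg adjustment over the 14.

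The pairs that did not differ beyond their spread both involved Ubr1. Huwe1 was above Ubr1 in 4 of 6 young mice (exact p = 0.125, adjusted p = 0.125), and Ubr1 was above Herc2 in 5 of 6 aged mice (exact p = 0.0938, adjusted p = 0.101). Ubr4 was above Ubr2 in every young mouse, by 0.12 ± 0.062 on the log2 scale (SD, n = 6), and below it in every aged mouse, by 0.25 ± 0.10 (SD, n = 6). This change of place restates their differences with age, −0.88 for Ubr4 and −0.51 for Ubr2, which were −0.10 and −0.11 with gene length correction. CPM per kilobase leaves the length slope of a library in. The order in each age was the same when any 1 mouse of that age was left out. Ubr4 made up 24.9% to 25.97% of the summed CPM of the 8 genes in young mice and 21.6% to 24.6% in aged mice.

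The 8 genes did not all vary together. With the mean of each age removed, Pearson's r of log2 CPM between pairs of them over 12 mice went from −0.07 to 0.90 over 28 pairs, with a median of 0.61. Ubr2 and Ubr4 were the closest pair. The 7 pairs with Ubr1 had a median of 0.30. Trip12 varied with the other ligases in aged mice (r of 0.45 to 0.95 over 6 mice) but against Ubr2, Ubr4, Herc1, Herc2, Huwe1 and Mycbp2 in young mice (r of −0.66 to −0.38 over 6 mice). The genes share the libraries and their length slope, so the correlations describe these mice only.

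Over all 12 mice, the 5 genes with log2 CPM most like that of Ubr4 among 9736 genes were Trrap, Kif13b, Tnrc6b, Nsd1 and Ep400, with Pearson's r of 0.988 to 0.991. Their exon lengths were 5603 to 17528 bases, and a value over both ages takes in the difference between them. With the mean of each age removed, the closest 5 were Gtf3c2, Trrap, Cep192, Gramd2 and Lrp8, with r of 0.903 to 0.917 and exon lengths of 1368 to 8093 bases but for Trrap (12476 bases). Among the ligases Ubr2 was the nearest, at rank 7 (r = 0.90), followed by Herc2 at rank 15 and Huwe1 at rank 17, and Trip12 (rank 3109) and Ubr1 (rank 3234) were far from it.

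Of 15 further genes of the N-degron pathway, all tested, 4 fell, 4 rose and 7 were not called. These shares are near the 23.0% and 22.4% of all tested genes, and the median log2 fold change was 0.09. Among those that fell were Fbxo11 (−0.42, adjusted p = 0.00100 by edgeR), Ubr3 (−0.29) and the arginyltransferase Ate1 (−0.20), which makes N-degrons. Those that rose were the amidase Ntan1, the thiol dioxygenase Ado (0.57), the conjugating enzyme Ube2a (0.41) and the UBR box protein Ubr7 (0.28). Ntan1, which turns N-terminal asparagine into aspartate, went from a lowest, median and highest value of 12.4, 18.4 and 19.97 CPM in young mice to 24.8, 26.6 and 28.4 CPM in aged mice, with no overlap and a log2 fold change of 0.64 (edgeR adjusted p = 4.01e-04). Kcmf1, the partner of Ubr4, had a log2 fold change of 0.08 and was not called. With gene length correction 2 of the 15 were called lower and 7 higher, against 16.4% and 18.4% of all tested genes with that correction.

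Of the other HECT ligases 10 of 19 tested genes were lower in aged mice and none higher, against 23.0% and 22.4% of all tested genes, with a median log2 fold change of −0.19. None was higher at an unadjusted p under 0.05 either, and DESeq2 called none higher. Hectd4, with 15482 bases of exon the one most like the giant ligases in length, fell most. Its lowest, median and highest values were 119, 139 and 175 CPM in young mice and 68.5, 74.8 and 90.0 CPM in aged mice, with a log2 fold change of −0.90 (edgeR adjusted p = 2.89e-05). Smurf2, Nedd4, Nedd4l, Hace1, Smurf1, Ube3a and Ube3c were also among those that fell, by 0.38 to 0.19 on the log2 scale. Herc6, an interferon-induced relative of the HERC ligases, had the highest value (0.30) and was not called. With gene length correction the count turned around, to none lower and 6 higher, against 16.4% and 18.4% of all tested genes with that correction. Among the 6 were Itch, Ube3b, Hectd3, Arel1 and Herc6, and Hectd4 was at −0.13 and not called.

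Of other large ligases 6 were tested and 1 fell, where 23.0% of all tested genes did. Birc6, an inhibitor of apoptosis that is E2 and E3 in 1 protein and has 15768 bases of exon, had a lowest, median and highest value of 327, 390 and 442 CPM in young mice and 185, 219 and 250 CPM in aged mice. Its log2 fold change of −0.82 (edgeR adjusted p = 9.38e-06) was close to that of Ubr4, and it was −0.05 and not called with gene length correction. Ltn1, the ligase of stalled ribosomes, has 7737 bases of exon, about as many as Ubr1 and Ubr2. It had a log2 fold change of −0.05 and was not called, and rose with the correction (0.35). Cul7, Cul9, Rnf123 and Rnf31 were called under neither. Rnf213 was not analysed here.

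Activating and conjugating enzymes act upstream of the ligases. Of 10 E1 and E2 enzymes 6 rose and none fell, against 22.4% and 23.0% of all tested genes, with a median log2 fold change of 0.25. None was lower at an unadjusted p under 0.05, and DESeq2 called none lower. Ube2d3, a conjugating enzyme that serves many ligases, rose most, from a lowest, median and highest value of 284, 370 and 416 CPM in young mice to 468, 525 and 623 CPM in aged mice, without overlap (log2 fold change 0.59, edgeR adjusted p = 5.17e-04). Uba1, the main ubiquitin-activating enzyme, went from 295, 376 and 401 CPM to 417, 442 and 460 CPM, also without overlap (0.28, edgeR adjusted p = 0.00771). Ube2d1, Ube2d2a, Ube2g1 and Ube2l3, the last a conjugating enzyme that works with HECT ligases, rose by 0.22 to 0.33, and Uba6, Ube2k, Ube2n and Ube2r2 were not called. With gene length correction 6 were higher and none lower, against 18.4% and 16.4% of all tested genes with that correction, and the median was 0.26. They were not the same 6: Ube2d1 (0.10) was no longer called and Ube2n (0.32) was. Without TMM factors 3 were higher. Whether the E1 and E2 enzymes and the ligases differ in their change with age was not tested.

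**Figure D5:**
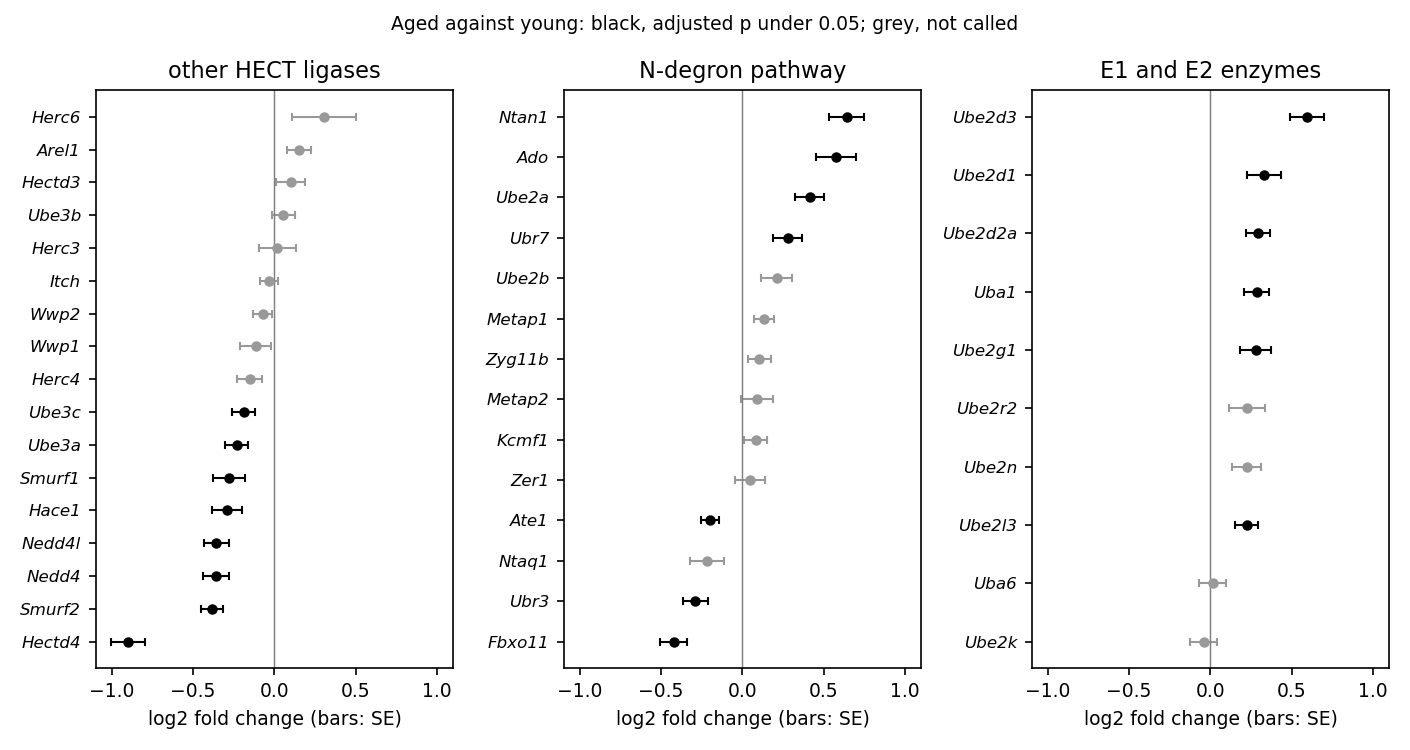
Log2 fold change of aged against young mice, with SE, for tested genes of 3 lists, without those not reported here, black where the edgeR adjusted p was under 0.05 and grey otherwise. Over the whole lists, the other HECT ligases have 10 genes called lower and none higher (none lower and 6 higher with gene length correction), the N-degron pathway 4 each way, and the E1 and E2 enzymes 6 higher and none lower. Of all tested genes 23.0% were called lower and 22.4% higher (16.4% and 18.4% with gene length correction).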

How the data were processed

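M-MDSCs of 12 mice were sequenced from stranded TruSeq libraries, with 1 library per mouse. The values used are fragment counts per gene as the authors deposited them, made with featureCounts 2.0.0 over the exons of a UCSC annotation of mm10, for pairs with both ends mapped to 1 chromosome, reverse-stranded, at mapping qualities of 60 or more. The name of the aligner is not given in the sources used here. The mapping quality leaves out fragments that fit several places. Exon length is the deposited length in the same table, and all 12 count columns were used.

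Aged and young mice, grouped by the labels, were compared with the edgeR 4.0.16 quasi-likelihood test in R 4.3.3, with filterByExpr, TMM factors (0.919 to 1.10) and Benjamini-Hochberg adjustment over 9742 genes at a threshold of 0.05. Genes called lower are said to have fallen and genes called higher to have risen. SE came from the log2 fold change and its F statistic. CPM used TMM-scaled totals. The biological coefficient of variation was 15.7%, and counting error is smaller than that for genes of over 285 counts, the lowest count of a ligase. The 30 pairs of same-age libraries differed beyond counting error (chi-square per gene of 1.67 or more), so each was kept as its own replicate. Young mice 5 and 6 were at 20.8 to 35.5 against the other young mice and at 3.94 with each other. Pairs among the other young mice were at 1.67 to 5.57, and aged pairs at 5.15 to 35.3. Young mice 5 and 6 were not left out together. The fit was tested on simulated counts. Neighbours in the order per kilobase were compared with exact sign-flip tests in SciPy 1.17.1.

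The ligases, the gene and marker lists, the motifs and the tests were chosen with earlier results of these data known. The text names all 8 ligases, of each list the genes with the smallest p, the largest rise and the largest fall and the exceptions where 5 or fewer, and the 5 genes most like Ubr4 by each of the 2 measures among those of at least 1 CPM. Other list genes that passed are named after their values were seen. A few list genes are counted but not reported here by name. Listed symbols missing from the table were matched through RefSeq synonyms, such as Hectd4 and Arel1. Alternatives were DESeq2 1.42.0, limma-voom (limma 3.58.1), totals without TMM, upper quartile scaling, 10 counts in every mouse, no filter, gene length correction (a loess curve of span 0.5 per library), thinning to 4613239 fragments, each mouse left out and a replicate block.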

Additional observations from a re-analysis of the deposited data

Results flagged for a closer look

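Each of the 8 ligases was checked in each age for a mouse far from the others, which gives 16 groups of 6, and chance marks about 1 in 20 such groups. The CPM of 2 mice stood out. Herc2 was 213 CPM in young mouse 5, where the gap to the next young mouse was 0.675 of the whole range of the young mice. Young mouse 5 also had the highest length slope. Trip12 was 395 CPM in aged mouse 7, with a gap of 0.660 of the range of the aged mice. Aged mouse 7 had the largest total, 16300374 fragments, and the aged length slope nearest to those of the young mice. The part of total and slope in these values was not tested. Without young mouse 5 or aged mouse 7, Herc2 and Trip12 kept their call and direction.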

How the results depend on the processing

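All counts of calls use an adjusted p under 0.05. The gene length correction had the largest effect on the ligases: the median log2 fold change was −0.12, 2 were called lower and 1 higher, and Ubr1 (0.22) and Trip12 (0.17) reversed. The lists then had 2 lower and 7 higher in the N-degron pathway, 0 lower and 6 higher among other HECT ligases, 0 lower and 1 higher among other large ligases, 1 lower among partners and 1 higher among substrates. Over all tested genes 16.4% were lower and 18.4% higher with that correction. Without TMM factors 3 E1 and E2 enzymes were higher, 5 partners lower and 1 higher, and 2 substrates lower. Upper quartile scaling gave 1 higher HECT ligase and 1 lower partner. Substrates had 1 higher with DESeq2 or with no filter, and 1 lower with limma-voom or thinning. The median over all genes moved to −0.08 without TMM, 0.04 with the upper quartile and 0.06 with no filter. Leaving out each mouse in turn gave 1 to 5 lower partners (1 without aged mouse 1, 4 or 6 or young mouse 5, and 5 without young mouse 1) and 0 to 1 lower substrates (1 without aged mouse 5 or 6). Ubr1 was not called with DESeq2 (−0.18), the upper quartile (−0.15) or no filter (−0.19). The other 7 ligases were called lower under each of the 8 alternatives but the length correction, and in all 12 fits without 1 mouse. Except where the construction shows it, the cause of a change was not tested.

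Same-numbered mice of the 2 ages (1, 2, 5 and 6) did not deviate together, with correlations of −0.14, −0.07, −0.24 and −0.25. The labels do not pair these mice, and the correlations cannot show whether they shared anything beyond a number. A replicate block on these 8 mice gave 3446 called genes, against 4394 in the same mice without it. With the block 7 ligases were called lower (Ubr1, at −0.26, was not), 6 other HECT ligases were lower, 2 E1 and E2 enzymes higher and 1 partner higher, and the same mice without the block gave 9 HECT ligases lower, 7 E1 and E2 enzymes higher and 1 partner higher. Each ligase had at least 285 counts in each mouse. With thinning to 4613239 fragments all 8 ligases were still called lower, with a median log2 fold change of −0.86. Ubr1 was then at −0.25, against −0.18 with all fragments. For the order per kilobase, 5 mice cannot give p below 0.0625 in the exact test.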

Other observations

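Genes whose products work with the giant ligases, or are known substrates of theirs, were read out as well. Of 12 partners 3 were called lower in aged mice and 2 higher, against 23.0% and 22.4% of all tested genes, with a median log2 fold change of −0.01. Usp7, a deubiquitinase that binds Trip12, fell (−0.38, edgeR adjusted p = 0.00299), as did Fbxo45 (−0.31), the F-box protein that joins Mycbp2, and Usp33 (−0.24). Skp1a, which works with Mycbp2 and Fbxo45, rose (0.55, edgeR adjusted p = 6.73e-04). It went from 35.9 to 53.5 CPM in young mice to 61.1 to 70.6 CPM in aged mice, without overlap. Mapk6 (0.30), a kinase that binds Herc2, rose as well. With gene length correction none of the 3 that fell was called (Usp7 −0.14, Fbxo45 −0.19, Usp33 −0.11). Rnf8 (−0.39) was then the 1 called lower, and 2 were higher, against 16.4% and 18.4% of all tested genes. The count of lower partners also depended on single mice.

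Of 14 genes of known substrates 7 were abundant enough to be tested. None of the 7 was called, where 45.4% of all tested genes were called in either direction. At an unadjusted p under 0.05, 1 of them was lower and none higher, DESeq2 called 1 higher and limma-voom called 1 lower. Mcl1, the survival factor that Huwe1 acts on, had a lowest, median and highest value of 753, 947 and 1009 CPM in young mice and 741, 859 and 997 CPM in aged mice, which overlapped throughout (log2 fold change −0.09). These are transcripts, and the amount of the proteins on which the ligases act was not measured. Myc was under 2 CPM in every mouse and was not tested, and Rgs16 had no counts.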
